A study of Bos indicus with 5 samples.

Results

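Transcripts of serpins and other protease inhibitors were examined in the ampulla, where the oviduct is wide and fertilization takes place, of multiparous, healthy Nelore (Bos indicus) cows. Members were taken by gene symbol, as every gene named as a serpin, cystatin, SPINK, SPINT, WFDC or ITIH gene, together with SLPI, A2M, PZP, TFPI, TFPI2, KAZALD1 and the SPOCK genes. This rule found 73 of the 24616 genes in the table, under 71 symbols. It also caught the 4 cleavage stimulation factor genes, CSTF1, CSTF2, CSTF2T and CSTF3, whose symbols begin like those of the cystatins but whose proteins act in messenger RNA processing. The other 69 members belong to inhibitor families, and SLPI, PZP, TFPI and SPOCK3 were not analysed here.

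The study compared 2 endocrine groups. All cows were presynchronized with a prostaglandin F2α analog and a GnRH agonist, then carried an intravaginal progesterone device, received estradiol benzoate, had prostaglandin at device removal and again later, and were induced to ovulate with the GnRH agonist. In LF/LCL (large follicle and large corpus luteum, n = 2) prostaglandin was also injected when the device was inserted, and the device came out 42 h before the ovulatory GnRH. In SF/SCL (small follicle and small corpus luteum, n = 3) it came out 30 h before. Tissue spanning the whole wall of the ampulla, on the side of the corpus luteum, was taken on day 4, and each library came from a different animal. The cows sequenced were chosen at the extremes of follicle size, luteal size and steroid concentration, and the authors discarded a further LF/LCL library for its quality, so the groups are ends of a range and small.

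Protease inhibitors set where and for how long a protease can act. Serpins trap serine proteases, and some cysteine proteases, by a loop that the protease cleaves, after which the pair is locked together. Kunitz, Kazal and WAP domain inhibitors are small domains that fit the active site reversibly, cystatins block the cathepsins of the lysosome, and α2-macroglobulin cages proteases of many classes. Several are made by epithelia of the reproductive tract, and the processes they hold back include coagulation, plasminogen activation and matrix turnover.

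Values are normalized reads, that is, reads of a gene divided by a size factor of the library, and are not divided by gene length, so levels are compared between libraries and not between genes. The libraries held from 13418278 to 19592174 reads assigned to genes. OVGP1, the oviduct glycoprotein of secretory cells, had from 117179 to 147247 normalized reads and FOXJ1, the master factor of ciliated cells, from 8481 to 12698, so markers of both epithelial cell types were present in every library. Markers of several cell types separated the groups, although none passed the limma test after adjustment. All 5 libraries were apart by group in 9 of 10 smooth muscle markers and in 10 of 11 T and NK cell markers, higher in LF/LCL, beside 15% of all genes in that direction, and in 12 of 14 ciliated cell markers, higher in SF/SCL, beside 15.1%. In whole tissue, fewer cells of a type and less RNA per cell cannot be told apart.

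Of the 73 members, 12 had no read in any library and 16 had reads but a mean of no more than 5 normalized reads, and these were not tested. The remaining 45 were tested. A count of 0 in a library does not exclude an expected level of up to 3 reads, which is from 2.33 to 3.52 normalized reads. Together the 69 inhibitor family members took between 0.288% and 0.411% of the reads in a library. Their summed level was 64626 and 47864 normalized reads in LF/LCL against 47416, 43862 and 50858 in SF/SCL, so that LF/LCL replicate 1 stood highest and the groups overlapped (exact permutation test, two-sided, p = 0.4, where the smallest p possible with 2 against 3 is 0.2). SPINT2 alone supplied 27.3% of that sum.

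No member passed the test after adjustment. With limma, 0 of 45 had an adjusted p (Benjamini-Hochberg over all genes tested) under 0.05, beside 0.0% of all 15815 genes tested, and edgeR's quasi-likelihood test also called 0. An unadjusted p under 0.05 was found for 5 of 45 members (11.1%), beside 11.5% of all genes, and by edgeR for 5 as well, beside 11.6% of all genes. The 3 higher in LF/LCL stood beside 5.64% of all genes in that direction and the 2 higher in SF/SCL beside 5.86%. These were WFDC2, SPOCK1 and SERPINB7, higher in LF/LCL, and SERPINI1 and SERPINI2, higher in SF/SCL. The libraries of the groups did not overlap in 12 members (26.7%), beside 30.1% of all genes, with 9 higher in LF/LCL (15% of all genes) and 3 higher in SF/SCL (15.1%). The limma, edgeR and overlap shares were near or under those of all genes, so the members as a set did not stand apart by these counts. DESeq2 called 4 of 45 members (8.89%), beside 2.89% of all genes, namely WFDC2, SPOCK1, SERPINB7 and SERPINI1. Before adjustment DESeq2 had 6 members at p under 0.05, beside 12.7% of all genes, the sixth being SERPINE3. The fold change was over 0 in 25 of 45 members, and in 21 of the 41 inhibitor family members, beside 50.8% of all genes. A highest library at least 5 times the lowest was found for 2 of the 29 members with a mean of at least 50, WFDC2 and SERPINF1, beside 3.61% of all genes at that level. The median log2 fold change, LF/LCL over SF/SCL on the log2(value + 1) scale, was 0.07 over the members and 0.01 over all genes.

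**Figure D1:**
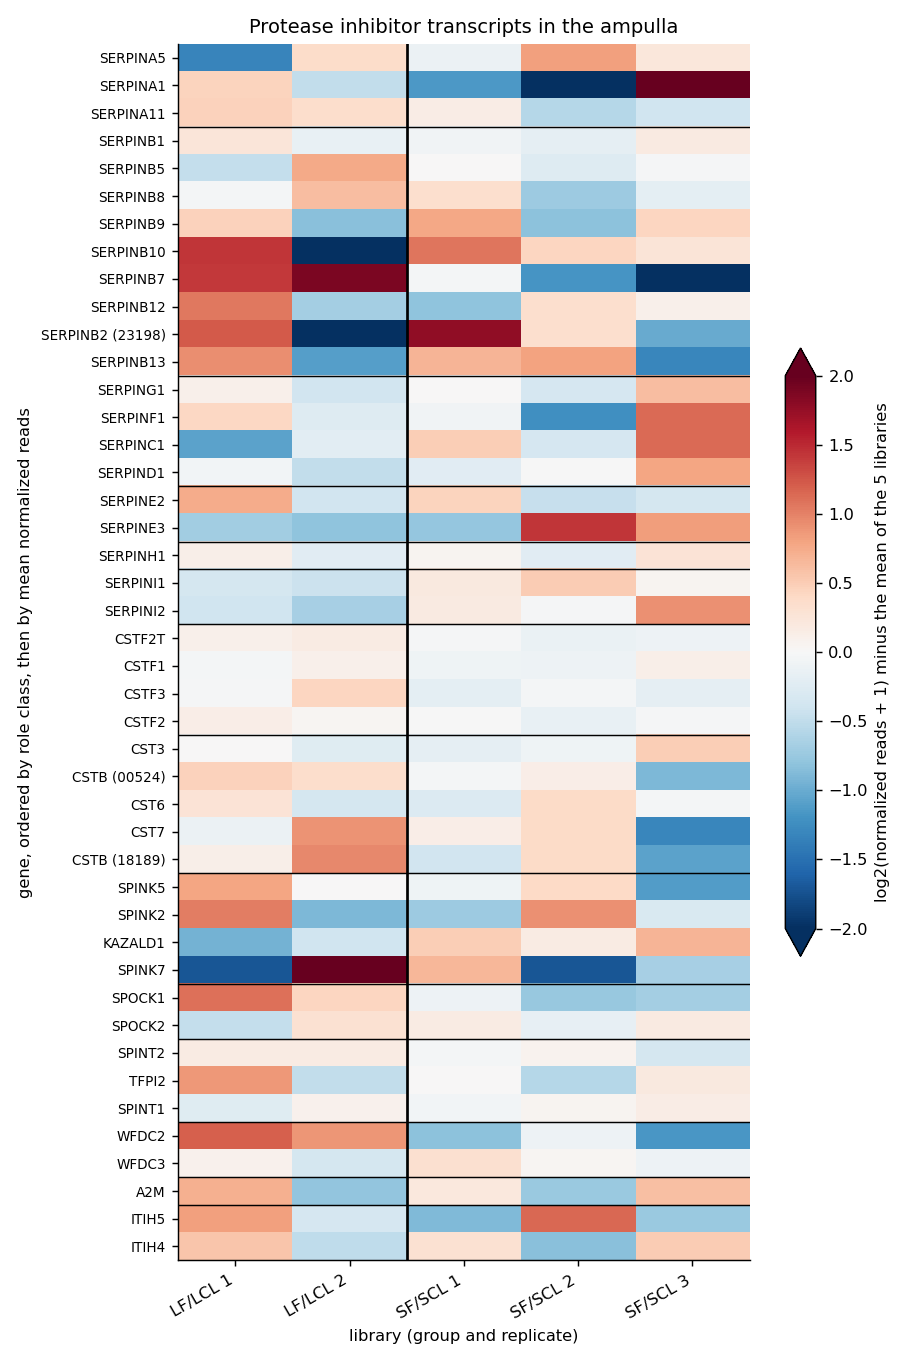
Heat map of 44 of the 45 members tested (rows, ordered by role class and then by mean normalized reads) in the 5 libraries (columns), coloured by log2(normalized reads + 1) minus the mean of the 5 libraries of that gene. WFDC2, SPOCK1 and SERPINB7 are redder in both LF/LCL columns, SERPINI1 and SERPINI2 are bluer in both LF/LCL columns, and other rows, such as SERPINA1 and SPINK7, differ widely within a group. Digits in brackets are the last digits of the identifier where 2 entries share a symbol.

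WFDC2, a WAP domain gene, showed the smallest p of all members. It encodes HE4, a small secreted protein of reproductive tract and airway epithelium. WFDC2 had 9259 and 7479 normalized reads in the LF/LCL libraries, in the order of replicates, against 2278, 3769 and 1812 in SF/SCL. Every LF/LCL library was above every SF/SCL library, and the mean was 3.19 times higher in LF/LCL (8369 ± 1259, SD, n = 2, against 2620 ± 1023, SD, n = 3). The log2 fold change was 1.74 ± 0.31 (SE), with a limma adjusted p of 0.218 and an unadjusted rank of 115 among 15815 genes. With DESeq2 the adjusted p was 6.7e-05. Of 7 secretory cell markers, EPCAM, KRT7 and PAX8 were higher in LF/LCL without overlap, beside 15% of all genes in that direction, and the other 4 overlapped. Of those 4, OVGP1, MUC1 and MSX1 had log2 fold changes under 0 (-0.07, -0.52 and -0.24), and that of GPX3 was 0.32. The markers summed to 165311 and 138805 normalized reads in LF/LCL against values from 138229 to 167235 in SF/SCL, so the sums overlapped. No marker was at 0 in all libraries. PAX8, a transcription factor of secretory cells, had 1279 and 1203 normalized reads in LF/LCL against values from 715.8 to 952.4 in SF/SCL. The part of cell makeup in the WFDC2 values was not tested.

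WFDC3, another WAP domain gene, did not show this pattern. It had 1054 and 784.02 normalized reads in LF/LCL against 1251, 1027 and 930.5 in SF/SCL, and the groups overlapped (log2 fold change -0.22, 95% interval -0.67 to 0.23). Of the other 6 WFDC genes, WFDC11 had 2 reads in a single library and WFDC5, WFDC8, WFDC9, WFDC13 and WFDC18 had none.

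SPOCK1 and SPOCK2 encode testicans, matrix proteoglycans that carry a Kazal-like domain. SPOCK1 had 1163 and 727.9 normalized reads in LF/LCL against 507.4, 320.97 and 339.1 in SF/SCL. The lowest LF/LCL value was above the highest SF/SCL value, and the mean was 2.43 times higher in LF/LCL. The log2 fold change was 1.27 ± 0.28 (SE), with an adjusted p of 0.253 with limma and 0.00509 with DESeq2. Without LF/LCL replicate 1 the log2 fold change was 0.93. The sums of smooth muscle and of fibroblast markers were also highest in LF/LCL replicate 1. The summed level of the 10 smooth muscle markers was 121921 and 63110 normalized reads in LF/LCL against values from 15839 to 42017 in SF/SCL, and that of the 10 fibroblast markers was 93638 and 39204 against 25455 to 51511, with no marker of either list at 0 in all libraries. Whether these cells supplied the SPOCK1 reads was not tested. SPOCK2 had 85.6 and 148.1 normalized reads in LF/LCL against values from 106.5 to 135.2 in SF/SCL, and the groups overlapped.

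**Figure D2:**
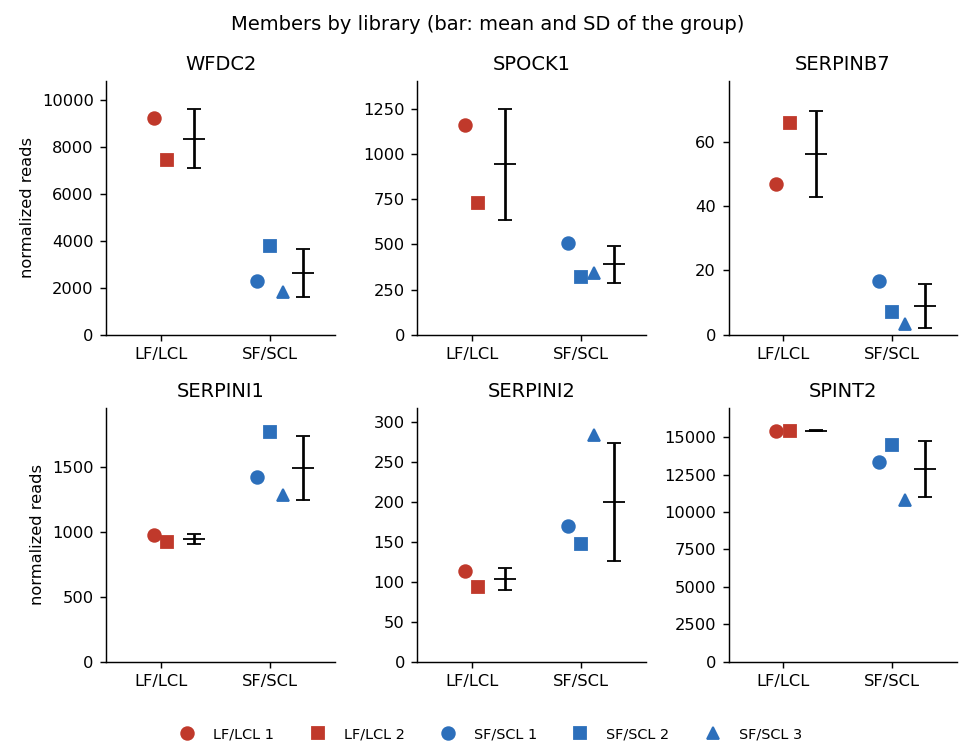
Normalized reads (vertical axis, linear from 0) of WFDC2, SPOCK1, SERPINB7, SERPINI1, SERPINI2 and SPINT2 in each library, with LF/LCL in red and SF/SCL in blue and the mean and SD of each group as a bar. In all 6 genes the groups do not overlap; the ratio of means runs from 1.199 for SPINT2 to 6.30 for SERPINB7 among the 4 higher in LF/LCL, and SERPINI1 and SERPINI2 are higher in SF/SCL.

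Both clade I serpins were higher in SF/SCL. Of 14 ciliated cell markers, 12 were also higher in SF/SCL without overlap, beside 15.1% of all genes in that direction. The part of ciliated cells in the serpin values was not tested. SERPINI1 encodes neuroserpin, an inhibitor of tissue plasminogen activator. It had 974.6 and 921.5 normalized reads in LF/LCL against 1420, 1767 and 1288 in SF/SCL. The LF/LCL libraries lay close together and under all 3 SF/SCL libraries. The log2 fold change was -0.64 ± 0.15 (SE), with an adjusted p of 0.284 with limma and 0.0365 with DESeq2. SERPINI2, first known as pancpin, had 113.8 and 93.9 normalized reads in LF/LCL against 169.5, 146.9 and 284.4 in SF/SCL. The log2 fold change was -0.89 ± 0.33 (SE), with a limma adjusted p of 0.401 and a DESeq2 adjusted p of 0.213. SF/SCL replicate 3 held the highest value, and without it the log2 fold change was -0.61 with an unadjusted limma p of 0.0644. PLAT, the plasminogen activator that neuroserpin inhibits, overlapped between groups, with 2611 and 1497 normalized reads in LF/LCL against values from 2201 to 3128 in SF/SCL.

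Most clade B serpins act inside cells, against granule proteases and cathepsins. Of these 11 members 9 were tested. SERPINB7, also known as megsin, had 46.9 and 65.8 normalized reads in LF/LCL against 16.6, 6.99 and 3.22 in SF/SCL. The groups were apart and the mean was 6.30 times higher in LF/LCL, from 136 reads in all. The log2 fold change was 2.75 ± 0.70 (SE), with an adjusted p of 0.301 with limma and 0.0295 with DESeq2. None of the others had an unadjusted p under 0.05.

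SERPINB1, an inhibitor of neutrophil elastase, had a narrow range, with 417.5 and 318.4 normalized reads in LF/LCL against values from 311.6 to 401.4 in SF/SCL (log2 fold change 0.07, 95% interval -0.40 to 0.53). SERPINB5, known as maspin, had 165.4 and 392.01 normalized reads in LF/LCL against values from 192.7 to 231.9 in SF/SCL, so that the LF/LCL libraries lay on either side of the other group. SERPINB10 had 71.5 and 1.94 normalized reads in LF/LCL against values from 31.1 to 55.1 in SF/SCL. SERPINB2, the inhibitor of plasminogen activators known as PAI-2, had 34.01 and 1.94 in LF/LCL against 49.9, 17.9 and 6.44 in SF/SCL, for the entry that was tested (ENSBTAG00000023198). Both genes were thus lowest in LF/LCL replicate 2, where SERPINB7 was highest. SERPINB8, SERPINB9, SERPINB12 and SERPINB13 overlapped between groups, with log2 fold changes from -0.31 to 0.48.

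Clades C, D, F and G hold serpins best known from plasma, and in none of the 4 tested were the groups apart. SERPING1, the C1 inhibitor of complement and kallikrein, had 2737 and 1961 normalized reads in LF/LCL against 2563, 2028 and 3926 in SF/SCL (log2 fold change -0.24, 95% interval -0.98 to 0.50). SERPINF1, the antiangiogenic factor PEDF, had 329.5 and 206.2 in LF/LCL against 233.9, 104.9 and 537.7 in SF/SCL, a range of 5.12 times within SF/SCL. SERPINC1, antithrombin, had 18.8 and 34.8 in LF/LCL against 57.2, 31.9 and 90.1 in SF/SCL. Its log2 fold change was -1.07 (95% interval -2.41 to 0.28) and the groups overlapped. SERPIND1, heparin cofactor II, had from 13.6 to 34.3 over the libraries, and SERPINF2, antiplasmin, had 10 reads in all.

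Of 10 clade A serpins, 3 were tested and none had an unadjusted p under 0.05. SERPINA5, the protein C inhibitor, had 26.97 and 89.05 normalized reads in LF/LCL against 63.4, 122.02 and 80.5 in SF/SCL. SERPINA1, the α1-antitrypsin gene, reached 128.8 normalized reads in SF/SCL replicate 3, compared with 2.33 to 17.6 in the other 4 libraries. This gene gave the widest range among members with a read in every library, 55.2 times, and the other SF/SCL libraries were under both LF/LCL libraries. Of 10 liver plasma protein markers tested, 5 were apart by group, all higher in LF/LCL, beside 15% of all genes in that direction. These were ALB, AMBP, FGA, FGB and FGG. An unadjusted limma p under 0.05, LF/LCL higher, was found for 4 of the 10, beside 5.64% of all genes, and none passed after adjustment. ALB had 194.7 and 58.1 normalized reads in LF/LCL against 11.8 to 31.9 in SF/SCL. It was lowest in the library where SERPINA1 was highest. TTR and APOA1 of the same list were instead highest in that library, with 82.6 and 594.5 normalized reads, and both overlapped between groups. The 14 markers of that list summed to 1072 and 428.8 in LF/LCL against values from 546.9 to 783.4 in SF/SCL, and none was at 0 in all libraries.

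Clade E holds serpins that act on serine proteases outside the cell. SERPINE2, or protease nexin 1, which inhibits thrombin, had 401.1 and 183.9 in LF/LCL against 325.4, 173.3 and 186.7 in SF/SCL. The groups overlapped, with a log2 fold change of 0.31 (95% interval -0.73 to 1.35). SERPINE3 had 19.9 and 18.4 normalized reads in LF/LCL against 18.7, 90.2 and 59.03 in SF/SCL, so that 2 SF/SCL libraries were high and the third matched LF/LCL. SERPINH1, the collagen chaperone HSP47, which is a serpin in fold but no inhibitor, had from 4033 to 5692 normalized reads (log2 fold change -0.08, 95% interval -0.52 to 0.36).

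The Kunitz inhibitors SPINT1 and SPINT2 restrain the membrane serine proteases of epithelium. SPINT2 had 15406 and 15441 normalized reads in LF/LCL against 13355, 14468 and 10779 in SF/SCL, apart by group but with a ratio of means of 1.199 and an interval of the log2 fold change that held 0 (0.27, 95% interval -0.09 to 0.63). SPINT1 had from 1017 to 1328 normalized reads and overlapped (-0.13, 95% interval -0.45 to 0.20). TFPI2, a Kunitz inhibitor of plasmin and trypsin in the matrix, had 5573 and 2172 in LF/LCL against 3084, 2066 and 3525 in SF/SCL. Its log2 fold change was 0.30 (95% interval -0.77 to 1.38), and LF/LCL replicate 2 lay among the SF/SCL libraries. SPINT4 had no read.

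Of the 8 Kazal inhibitor genes, 4 were tested and none had an unadjusted p under 0.05. SPINK5, the inhibitor LEKTI of epithelial kallikreins, had 119.6 and 68.7 normalized reads in LF/LCL against values from 31.1 to 90.9 in SF/SCL. SPINK2 had 69.2 and 17.4 in LF/LCL against values from 19.8 to 63.7 in SF/SCL. KAZALD1 was apart by group with 7.04 and 10.6 in LF/LCL against 20.8, 16.3 and 23.6 in SF/SCL (log2 fold change -1.1195, 95% interval -2.34 to 0.10). SPINK7 reached 33.9 normalized reads in LF/LCL replicate 2, compared with 0 to 4.16 elsewhere.

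The cystatins did not differ by group with an unadjusted p under 0.05. CST3, the secreted cystatin C, had 3967 and 3333 normalized reads in LF/LCL against 3478, 3721 and 5514 in SF/SCL. CSTB, the intracellular cystatin B (ENSBTAG00000000524), had 2775 and 2589 in LF/LCL against 1974, 2223 and 1081 in SF/SCL. The groups of CSTB were apart, with a log2 fold change of 0.67 ± 0.31 (SE) and a limma adjusted p of 0.48. SF/SCL replicate 3 was the lowest library for CSTB and for CST7, the leukocyte cystatin (12.9 against 30.5 to 62.9 normalized reads elsewhere), and the highest for CST3. CST6 had from 131.6 to 219.2 normalized reads. The cleavage stimulation factor genes, as a comparison that shares only the letters of the symbol, ranged at most 1.54 times between libraries. Of the 4, 3 were apart by group and higher in LF/LCL, beside 15% of all genes in that direction, with log2 fold changes from 0.13 to 0.34. None had an unadjusted limma p under 0.05.

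A2M and the inter-alpha-trypsin heavy chains varied widely between animals within both groups. A2M, the macroglobulin, had 12306 and 4366 normalized reads in LF/LCL against 8693, 4491 and 11469 in SF/SCL. Its log2 fold change was -0.06 with a 95% interval of -1.44 to 1.32. ITIH4 had 155.98 and 74.5 in LF/LCL against 131.001, 59.1 and 151.3 in SF/SCL, in the same pattern of high and low libraries. ITIH5, a heavy chain linked to hyaluronan in the matrix, followed another order, with 423.4 and 190.7 in LF/LCL against 128.9, 530.8 and 142.7 in SF/SCL.

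**Figure D3:**
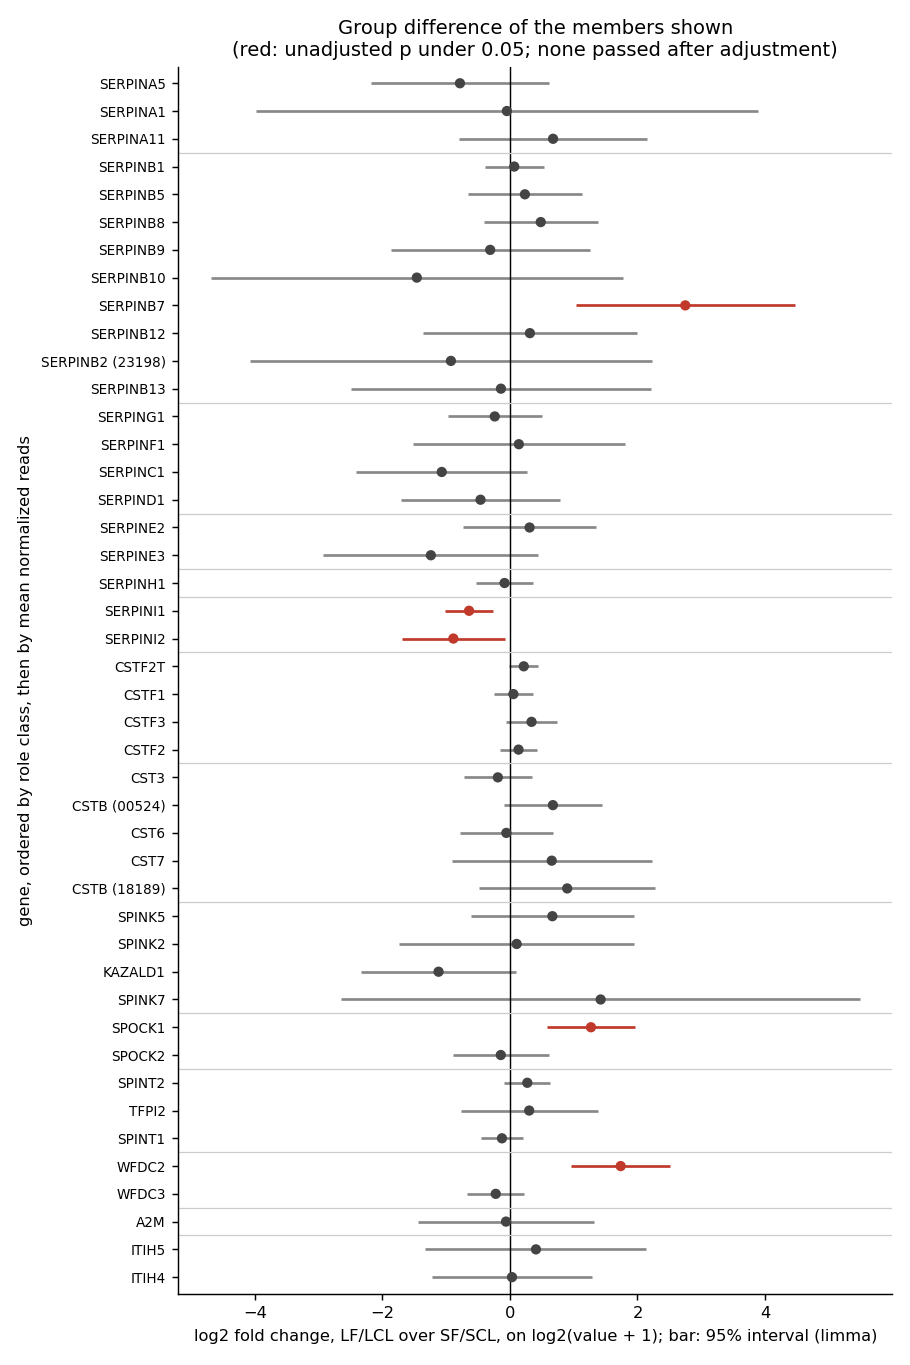
Log2 fold change (horizontal axis, LF/LCL over SF/SCL on the log2(value + 1) scale) of 44 of the 45 members tested, with the 95% interval from limma as a bar. The 5 genes in red had an unadjusted p under 0.05 and none passed after adjustment; the intervals of SERPINA1, SPINK7, SERPINB10 and SERPINB2 are the widest.

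The order of libraries seen in A2M recurred in other members, a pattern noticed after the values were seen. LF/LCL replicate 2 and SF/SCL replicate 2 were the lowest 2 libraries in 9 of 45 members (20%), beside 10.4% of all genes. The 9 were A2M, ITIH4, TFPI2, SERPING1, SERPINF1, SERPINE2, SERPINB1, SERPINB9 and SERPINH1. These libraries were also the deepest, with 16171541 and 19592174 reads, and the other 3 held from 13418278 to 14785598. They were lowest in 6 of 10 fibroblast markers and 5 of 9 endothelial markers as well, and in 0 of 14 ciliated and 0 of 10 smooth muscle markers. The part of depth or of stromal cell content in this order was not tested. They were the highest libraries in 3 members (6.67%), beside 9.19% of all genes, namely CST7, SERPINA5 and a CSTB entry (ENSBTAG00000018189).

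**Figure D4:**
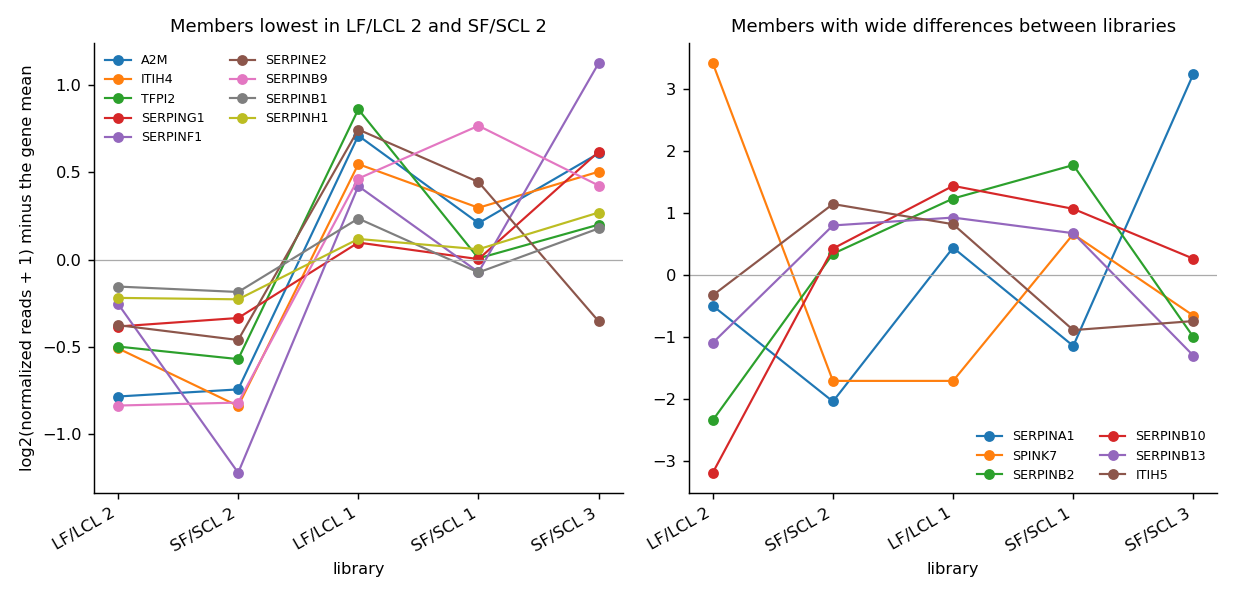
Log2(normalized reads + 1) minus the gene mean (vertical axis) by library, with the libraries LF/LCL 2 and SF/SCL 2 placed at the left. Left, the 9 members that are lowest in these 2 libraries; right, 6 members with wide differences between libraries, such as SERPINA1, high in SF/SCL replicate 3, and SPINK7, high in LF/LCL replicate 2.

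A list of 93 symbols, called partner proteases here, held proteases, cofactors and receptors. It covered plasminogen and coagulation genes, trypsin-like proteases, leukocyte serine proteases, cysteine cathepsins with legumain, and complement proteases. The list was made by pathway and protease family, so a gene on it need not be a target of these inhibitors. Of the symbols 84 were in the table, and 65 entries were tested. With limma 0 passed after adjustment, and 11 (16.9%) had an unadjusted p under 0.05, beside 11.5% of all genes. Of these 6 were higher in SF/SCL, a direction that held 5.86% of all genes. DESeq2 called 7 (10.8%), beside 2.89% of all genes. The 11 included 4 of the 15 plasminogen and coagulation genes tested (26.7%), each higher in SF/SCL. F5, coagulation factor V, had 23.5 and 54.2 normalized reads in LF/LCL against 197.5, 423.6 and 376.7 in SF/SCL. Its log2 fold change was -3.11 ± 0.48 (SE), with an adjusted p of 0.178 with limma and 2.5e-07 with DESeq2. F2, prothrombin, had 802.2 and 1022 in LF/LCL against 1437, 1677 and 1629 in SF/SCL. F3, tissue factor, had 493.7 and 1009.6 in LF/LCL against 1569, 2103 and 1013 in SF/SCL, so that 1 library of each group nearly met. PROS1, the anticoagulant protein S, had 333.1 and 239.1 in LF/LCL against 696.6, 553.3 and 1421 in SF/SCL.

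The serpins that act on thrombin did not all share the direction of F5, F2, F3 and PROS1. SERPINC1 and SERPIND1 had log2 fold changes of -1.07 and -0.46 and SERPINE2 of 0.31, none with an unadjusted p under 0.05. Among the trypsin-like proteases HPN, hepsin, which SPINT1 and SPINT2 inhibit, had 89.1 and 64.9 normalized reads in LF/LCL against 193.4, 242.5 and 280.1 in SF/SCL, with a log2 fold change of -1.62 ± 0.26 (SE) and a limma adjusted p of 0.182. FURIN, a proprotein convertase, and HTRA3, a secreted serine protease, were higher in LF/LCL, with log2 fold changes of 0.51 and 1.25, and ST14, matriptase, had 1910 and 1770 against 1358 to 1679. The cathepsins CTSS and CTSZ were higher in LF/LCL, with log2 fold changes of 0.70 and 0.72. CTSZ had 1160 and 1240 normalized reads in LF/LCL against values from 693.2 to 784.97 in SF/SCL. GZMB, the granzyme of cytotoxic lymphocytes (ENSBTAG00000039813), was higher in LF/LCL (41.05 and 27.1 against 7.77 to 12.5), as were T and NK cell markers, whose part was not tested. This entry held 95 reads in all, and the other GZMB entry had no read. GZMM was also apart with LF/LCL higher, while both GZMA entries and GZMK overlapped between groups. CFD, complement factor D, had 622.7 and 351.4 in LF/LCL against 839.03, 1017 and 1582 in SF/SCL.

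**Figure D5:**
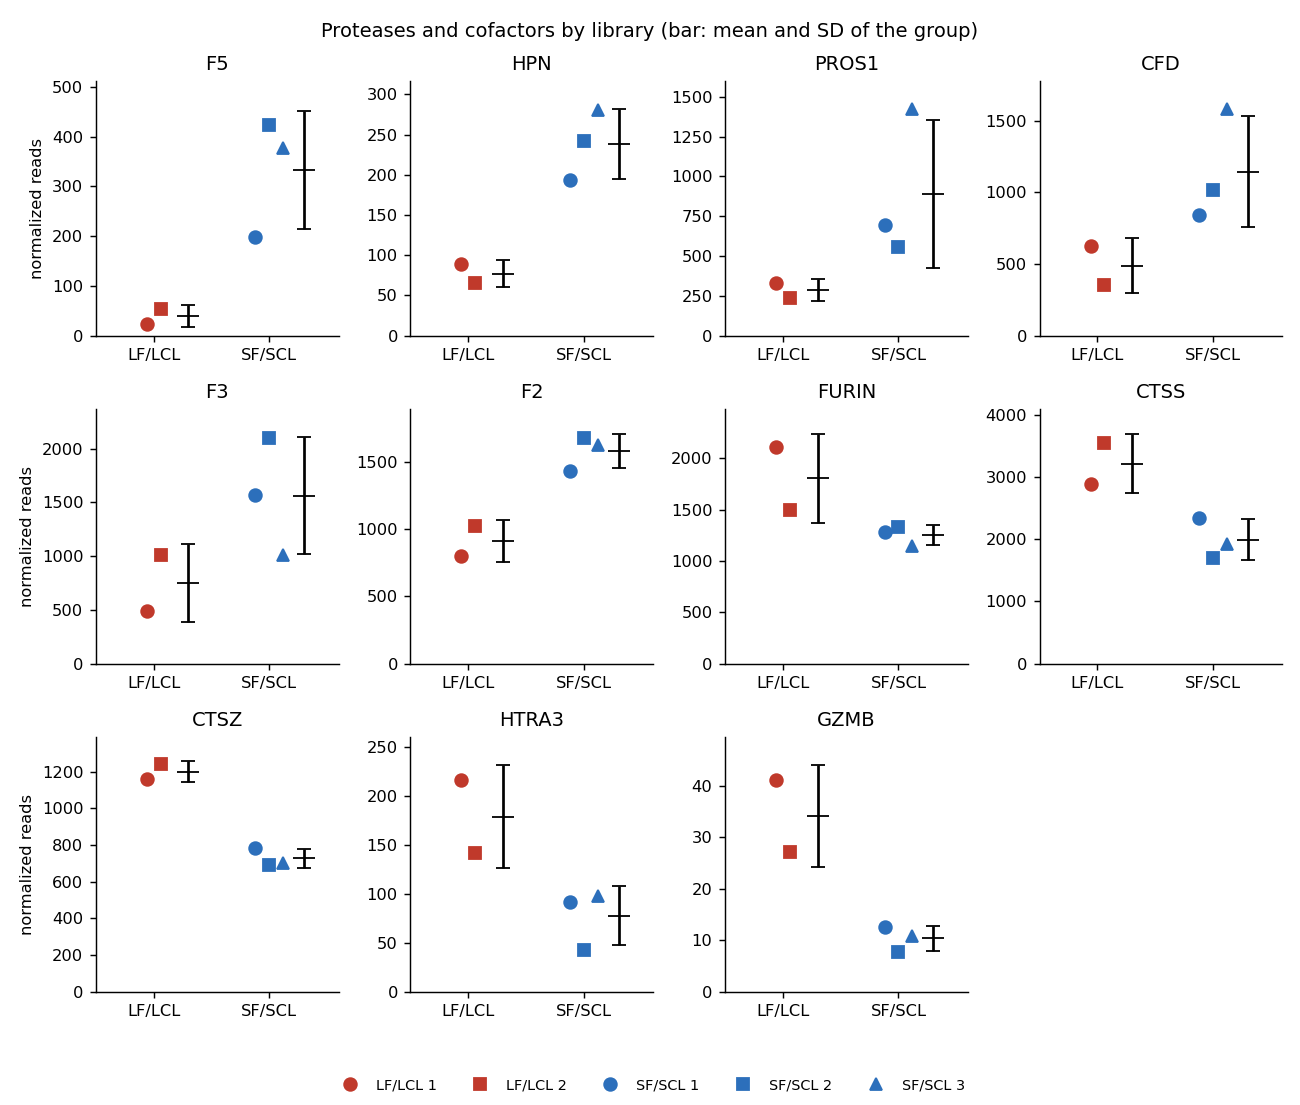
Normalized reads (vertical axis, linear from 0) of the 11 proteases and cofactors with an unadjusted limma p under 0.05, by library, with LF/LCL in red, SF/SCL in blue and the mean and SD of each group as a bar. F5, HPN, PROS1, CFD, F3 and F2 are higher in SF/SCL, and FURIN, CTSS, CTSZ, HTRA3 and GZMB in LF/LCL; none passed after adjustment with limma.

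Class sums were taken over the members tested. The WAP domain sum was 10313 and 8263 normalized reads in LF/LCL against 3529, 4796 and 2742 in SF/SCL, and WFDC2 was 83.0% of it. Without WFDC2 this sum held WFDC3 alone, with a log2 ratio of -0.22, and without SPOCK1 that of the testicans held SPOCK2 alone, with -0.10. The testican sum was 2.07 times higher in LF/LCL, and the clade I serpin sum was 0.622 of the SF/SCL level, with SERPINI1 as 88.7% of it. In these 3 classes, and in the clade B serpins, the Kunitz inhibitors and the cleavage stimulation factors, all libraries were apart by group and the exact permutation test (two-sided) gave p = 0.2, the smallest it can give here. In the serpins of clade A, of clade E and of clades C, D, F and G together, the cystatins, the Kazal inhibitors and the inter-alpha-trypsin chains the groups overlapped, with p from 0.4 to 1 by the same exact test.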

How the data were processed

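PolyA libraries of the ampulla were sequenced as read pairs by the authors, who trimmed reads with seqyClean, aligned them, per the submitters' processing notes, with TopHat2 2.0.8 and Bowtie2 2.1.0 to the masked cattle assembly UMD 3.1, counted uniquely mapped reads per Ensembl gene with HTSeq 0.5.4p2 and divided them by DESeq 1.12.1 size factors. The deposited values are this normalized signal, as reads per gene divided by the size factor. Whether counting used strand was not stated, so overlapping and antisense genes are uncertain, as are entries that share a symbol.

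Division by the step of each library turned 100% of the nonzero deposited values into whole reads (within 0.1 read), on which edgeR and DESeq2 were run. Groups followed the sample titles, and replicate numbers follow the order of the samples. The main test was limma 3.58.1 (R 4.3.3) on log2(value + 1), with trend and robust estimation, for 15815 genes with a mean over 5. P-values were two-sided and adjusted by Benjamini-Hochberg over all genes tested. The alternatives were edgeR 4.0.16 (quasi-likelihood, TMM) and DESeq2 1.42.0 on whole reads, other pseudocounts, filters and scaling, and leaving out each library. The scripts were tested on simulated data.

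Members and lists were chosen with earlier results of these data known. Named members are those with an unadjusted p under 0.05 or called by any tool, the 2 with the most reads in each role class, those with a mean of at least 50 and a range of at least 5 times, and partner proteases with an unadjusted p under 0.05; 1 member that this rule selects is not reported here, and other genes named in the text were chosen after their values were seen. Gene order came from RefSeq names of another assembly (NIAB-ARS_B.indTharparkar_mat_pri_1.0), in which 60 of 71 member symbols matched, and no coordinates or sequences are given.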

Additional observations from a re-analysis of the deposited data

How the results depend on the processing

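The number of members called, 0, was 0 under every alternative run except DESeq2, which called 4, and ran from 0 to 0 when each library was left out. The cause of the difference between tools was not tested. The 5 of 45 members at an unadjusted p under 0.05 became 9 of 61 without a filter, because more genes entered. Those added were ITIH1, SERPINA10, SERPINA12 and SERPINA3-1, each with few reads, mostly or all in LF/LCL. The count was 5, 8 and 5 without SF/SCL replicate 1, 2 and 3. The share of all genes at that p was not computed for these fits, so the counts have no background beside them. WFDC2, SPOCK1, SERPINI1 and SERPINB7 were among them whichever SF/SCL library was left out, and SERPINI2 only without SF/SCL replicate 2. Where a single LF/LCL library was left, it was assumed to vary like SF/SCL. When each library of either group was left out, the log2 fold change ran from 1.51 to 2.03 for WFDC2, from 0.93 to 1.61 for SPOCK1 and from 2.25 to 3.28 for SERPINB7. It ran from -0.74 to -0.51 for SERPINI1 and from -1.08 to -0.61 for SERPINI2. The partner proteases at an unadjusted p under 0.05 ran from 10 to 14 when each SF/SCL library was left out, also without a share of all genes beside them.

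The log2 ratio of some class sums changed sign. Without the most abundant member it was -0.12 for the clade E serpins, -0.10 for the testicans and -0.22 for the WAP domain genes. The last 2 values are those of a single gene, SPOCK2 and WFDC3. When each library was left out it ran from -0.537 to 0.0736 for the serpins of clades C, D, F and G (over 0 without SF/SCL replicate 3), from -0.136 to 0.438 for clade E and from -0.0117 to 0.171 for the cystatins (both under 0 without LF/LCL replicate 1), and from -0.524 to 0.608 for the inter-alpha-trypsin chains (-0.524 without LF/LCL replicate 1, -0.0657 without SF/SCL replicate 1, and -0.0089 when SF/SCL replicate 3 was left out). Taking the share of the library total, or TMM scaling, changed no direction of a class sum, though the clade B groups overlapped as shares. No paired analysis was possible because each library came from a different animal and the labels give no shared replicate numbers. With 2 and 3 libraries, depth limits members with few reads most.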

Other observations

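Several members lie side by side in the genome, by the order of coding genes in the RefSeq table. SERPINI1 and SERPINI2 have 2 coding genes between them, PDCD10 and WDR49. WDR49 was also higher in SF/SCL, with 157.2 and 280.7 normalized reads in LF/LCL against 418.996, 442.2 and 342.3 in SF/SCL (log2 fold change -0.92 ± 0.28, SE, limma adjusted p 0.33). PDCD10 overlapped between groups (log2 fold change 0.02, limma adjusted p 0.973). These genes were chosen after the values of the clade I serpins were seen.

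In the WFDC row, WFDC8, WFDC9, WFDC11 and WFDC13 lie between WFDC2 and WFDC3, and of these 6 genes WFDC2 and WFDC3 held all but 2 of the reads. In the clade A row, SERPINA10, SERPINA6, SERPINA1, SERPINA11, SERPINA12, SERPINA4 and SERPINA5 lie in that order, with 1 other coding gene among them, and 3 of them, SERPINA1, SERPINA11 and SERPINA5, had a mean over 5 normalized reads. SERPINF2, with 10 reads in all, lies beside SERPINF1.

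ITIH1, a heavy chain gene in a row with ITIH4 and ITIH3, had 7.04 and 4.84 normalized reads in LF/LCL and none in SF/SCL, from 11 reads in all. SERPINA3-1 had 14.1 and 3.87 normalized reads in LF/LCL against 0, 1.55 and 0 in SF/SCL. Both were under the filter on the mean and entered the fits only with a lower filter or none. They passed a lower filter through their LF/LCL reads, so those fits cannot decide whether they differ by group.

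A second entry of CSTB (ENSBTAG00000018189) had between 13.95 and 60.01 normalized reads. The main entry had from 43.1 to 86.3 times as many reads in the same library, so the ratio of the entries was not fixed.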
